A study of Mus musculus with 13 samples.

Results

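The transcripts of 10 translation genes that encode no ribosomal protein were followed in mouse sciatic nerves with and without Raptor in Schwann cells (SCs). The genes were Eef1a1, Eef1b2, Eef1d, Eef1g and Eef2 of the elongation machinery, Eif3e, Eif3f and Eif3h of the initiation factor eIF3, the poly(A)-binding protein gene Pabpc1, and Tpt1, which encodes the translationally controlled tumor protein. They were chosen by name because their mRNAs are known as terminal oligopyrimidine (TOP) mRNAs, and all 10 were found among the 40787 genes of the count table. The 13 libraries came from Rptor flox/flox mice on a C57BL/6 background. RaptorKO mice also carried a tamoxifen-inducible Cre that recombines in SCs, and controls lacked Cre. Every mouse received tamoxifen at 2 months of age and a unilateral crush of the sciatic nerve 2 months later, and nerves were collected at 5 days post crush (dpc). The groups were control contralateral (uninjured side, n = 3), RaptorKO contralateral (n = 4), control injured (n = 3) and RaptorKO injured nerves (n = 3).

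A TOP mRNA begins with a cytosine that is followed by an unbroken run of pyrimidines. When mTORC1, the kinase complex built around Raptor, is inactive, the RNA-binding protein LARP1 holds such messages back from ribosomes, and this control covers most mRNAs of ribosomal proteins and several of translation factors. In peripheral nerve, mTORC1 activity in SCs is known to be low in the adult and to return after injury. RNA sequencing measures how much of a transcript was present, not how much of it was translated.

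The pyrimidine tract was looked up in the GENCODE M21 transcripts of GRCm38, as a C followed by at least 4 bases that are C or T, on the transcript strand only. Of the 10 genes, 4 carried such a tract at the first annotated base of a coding transcript (40% of the genes, against 5.13% of 21713 protein-coding genes and 28% of the 82 cytosolic ribosomal protein genes). All 10 had one somewhere in the opening 60 bases of a coding transcript, but so did 75.5% of all protein-coding genes. The sequences below are genomic, 5′ to 3′ along the transcript, with the tract in capitals. Eef1d, Pabpc1 and Eif3f are shown because their tract lies at the first base of an annotated coding transcript, Eef1d-217, Pabpc1-201 and Eif3f-201, respectively. These genes have 15, 3 and 1 annotated coding transcripts, and a gene with more had more chances. Of the tracts shown here, only that of Eif3f also lies at the annotated start of its gene.
Eef1d (chr15:75909277-75909306, minus strand): CTCTCCTTTgcagtcctgagctcgcagttc
Pabpc1 (chr15:36608944-36608973, minus strand): CCCCTTCTCCCCggcggttagtgctgagag
Eif3f (chr7:108934417-108934446, plus strand): CTCTTTCTCggcaagatggcttctccggcc

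Eef1a1 and Tpt1, with the largest differences between RaptorKO and control contralateral nerves, are shown for contrast. Their tracts started at base 54 and 29 of the annotated transcript, respectively, and the annotation may begin upstream of the start that the cells use.
Eef1a1 (chr9:78481647-78481676, minus strand): acgttCTTTTTCgcaacgggtttgccgtca
Tpt1 (chr14:75845325-75845354, plus strand): gtcggCCTTTTCCgcccgctcccccctccc

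Library totals ranged from 8200458 to 13581775 expected counts, and the lowest count of any of the 10 genes in any library was 599, so sampling noise was small for all of them. Values are given as counts per 1000000 (CPM) after TMM scaling. Rptor itself was at 49.7 ± 4.99 CPM (SD, n = 3) in control contralateral and 24.6 ± 2.58 CPM (n = 4) in RaptorKO contralateral nerves, and at 42.3 ± 6.83 and 26.1 ± 2.74 CPM (n = 3 each) in injured ones. It was lower in RaptorKO nerves on both sides (log2 fold change -0.998, adjusted p = 0.0005, and -0.69, adjusted p = 0.0167). RNA came from whole nerve without epineurium, so these values sum over recombined SCs and all other cells, and fewer cells of a type cannot be told apart from less RNA per cell. The 2 libraries of the third control held 14462 to 15017 Xist counts and 10 to 20 counts of Y-linked genes, where the other 11 held 4 to 17 and 1456 to 2338. That control therefore differed from all other libraries in sex-linked genes, and results that depend on it are given with and without it.

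In contralateral nerves, all 10 genes were higher in RaptorKO than in control nerves, and for each gene the RaptorKO values lay above all control values. A gene counted as called if its adjusted p was under 0.05 and its fold change over 1.2, by the quasi-likelihood test of edgeR with Benjamini-Hochberg adjustment over the 11878 genes tested. Of those genes, 4.49% were called higher and 5.68% lower, and 9.98% had all RaptorKO values above all control values. The median log2 fold change of the 10 genes was 0.85, against 0.01 for all genes tested. Together they took up 0.614% to 0.638% of all counts in control contralateral libraries and 1.343% to 1.495% in RaptorKO contralateral libraries. Eef1a1 made up most of this share in both groups, with means of 3784 and 9125 CPM. The 10 genes summed to 6671 to 6815 and 13836 to 15863 CPM, respectively.

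Eef1a1 encodes the factor that brings aminoacyl-tRNA to the ribosome (ENSMUSG00000037742, chromosome 9, 78478449 to 78489151, minus strand). It was at 3700, 3878 and 3774 CPM in the control contralateral nerves and at 8578, 8638, 8809 and 10476 CPM in the RaptorKO ones. The groups were far apart, and the fourth RaptorKO library stood above the other 3, which lay close together. The log2 fold change was 1.29 ± 0.098 (SE, adjusted p = 6.21e-05), and 1.21 without the fourth RaptorKO library. The expected count of Eef1a1 was not a whole number in 9 of 13 libraries, as it can be when RSEM divides reads. This also held in 7 libraries each for Eef1b2 and Eef1d, 6 for Eef2 and 4 for Pabpc1. It held in 3 for Tpt1, 2 for Eef1g and 1 for Eif3f, and in 0 for Eif3e and Eif3h. Whether reads were divided between genes was not tested. Eef1a2, the paralog of Eef1a1 in neurons and muscle, was at 16.1 ± 1.90 and 21.9 ± 1.76 CPM in control and RaptorKO contralateral nerves and was not called (log2 fold change 0.46, adjusted p = 0.0571; named after its values were seen).

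The eEF1B subunits recharge eEF1A with GTP. Eef1b2, an exchange subunit (ENSMUSG00000025967, chromosome 1, 63176825 to 63180486, plus strand), was at 70.9, 66.6 and 74.7 CPM in control and at 125.1, 144.7, 122.8 and 130.7 CPM in RaptorKO contralateral nerves (log2 fold change 0.91 ± 0.090, adjusted p = 0.000171). Eef1d, a further exchange subunit (ENSMUSG00000055762, chromosome 15, 75894205 to 75909556, minus strand), was at 148.1, 136.4 and 155.5 CPM against 257.3, 262.9, 228.5 and 217.5 CPM (log2 fold change 0.74 ± 0.091, adjusted p = 0.000681). For both genes the gap between the groups was wider than the range within either group. Eef1g, the structural subunit (ENSMUSG00000071644, chromosome 19, 8967041 to 8978479, plus strand), was at 163.9, 152.4 and 181.9 CPM against 253.9, 242.7, 237.6 and 192.7 CPM. Here the lowest RaptorKO value was close to the highest control value, and Eef1g had the smallest difference of the 10 genes (log2 fold change 0.50 ± 0.10, adjusted p = 0.0139). Its call was lost when the first or the second control contralateral library was left out (adjusted p = 0.0647 and 0.0814). Eef1b2 overlaps Ndufs1 on the other strand, and Eef1d overlaps Naprt on the same strand. Ndufs1 was at 51.1 ± 4.30 and 48.0 ± 3.83 CPM and Naprt at 9.19 ± 1.798 and 9.91 ± 0.728 CPM in control and RaptorKO contralateral nerves.

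Eef2, the GTPase that moves the ribosome along the message (ENSMUSG00000034994, chromosome 10, 81176631 to 81182498, plus strand), was at 1083, 1001 and 1022 CPM in control and at 1861, 2084, 1983 and 1997 CPM in RaptorKO contralateral nerves. All 4 RaptorKO values lay well above the 3 control values, with a log2 fold change of 0.96 ± 0.079 (adjusted p = 7.69e-05).

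Among the eIF3 subunits, Eif3e (ENSMUSG00000022336, chromosome 15, 43250058 to 43282719, minus strand) was at 54.7, 69.7 and 72.4 CPM in control and at 112.0, 115.1, 114.0 and 123.4 CPM in RaptorKO contralateral nerves (log2 fold change 0.84 ± 0.11, adjusted p = 0.000756). Eif3f (ENSMUSG00000031029, chromosome 7, 108934417 to 108942951, plus strand) was at 110.5, 100.3 and 107.4 CPM against 159.9, 167.6, 161.2 and 183.1 CPM (log2 fold change 0.68 ± 0.081, adjusted p = 0.000534). Eif3h (ENSMUSG00000022312, chromosome 15, 51786558 to 51865523, minus strand) was at 127.8, 136.8 and 131.3 CPM against 230.2, 244.9, 239.2 and 232.1 CPM (log2 fold change 0.86 ± 0.071, adjusted p = 7.69e-05). Within each group the Eif3h values were close together, and of the 10 genes it had the smallest standard error.

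Pabpc1 coats the poly(A) tail and joins it to the cap-binding complex (ENSMUSG00000022283, chromosome 15, 36595661 to 36609668, minus strand). It was at 328.2, 336.0 and 355.0 CPM in control and at 531.7, 525.5, 562.1 and 683.2 CPM in RaptorKO contralateral nerves (log2 fold change 0.78 ± 0.10, adjusted p = 0.00112). Tpt1 (ENSMUSG00000060126, chromosome 14, 75845093 to 75848525, plus strand), an abundant protein that binds eEF1A, was at 883.4, 821.6 and 941.5 CPM against 1727, 1965, 1647 and 1628 CPM (log2 fold change 1.0 ± 0.094, adjusted p = 0.000128). As for Eef1a1, the highest RaptorKO values of Pabpc1, Eif3e and Eif3f were those of the fourth library, whereas the same library had the lowest RaptorKO values of Tpt1, Eef1d and Eef1g.

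**Figure D1:**
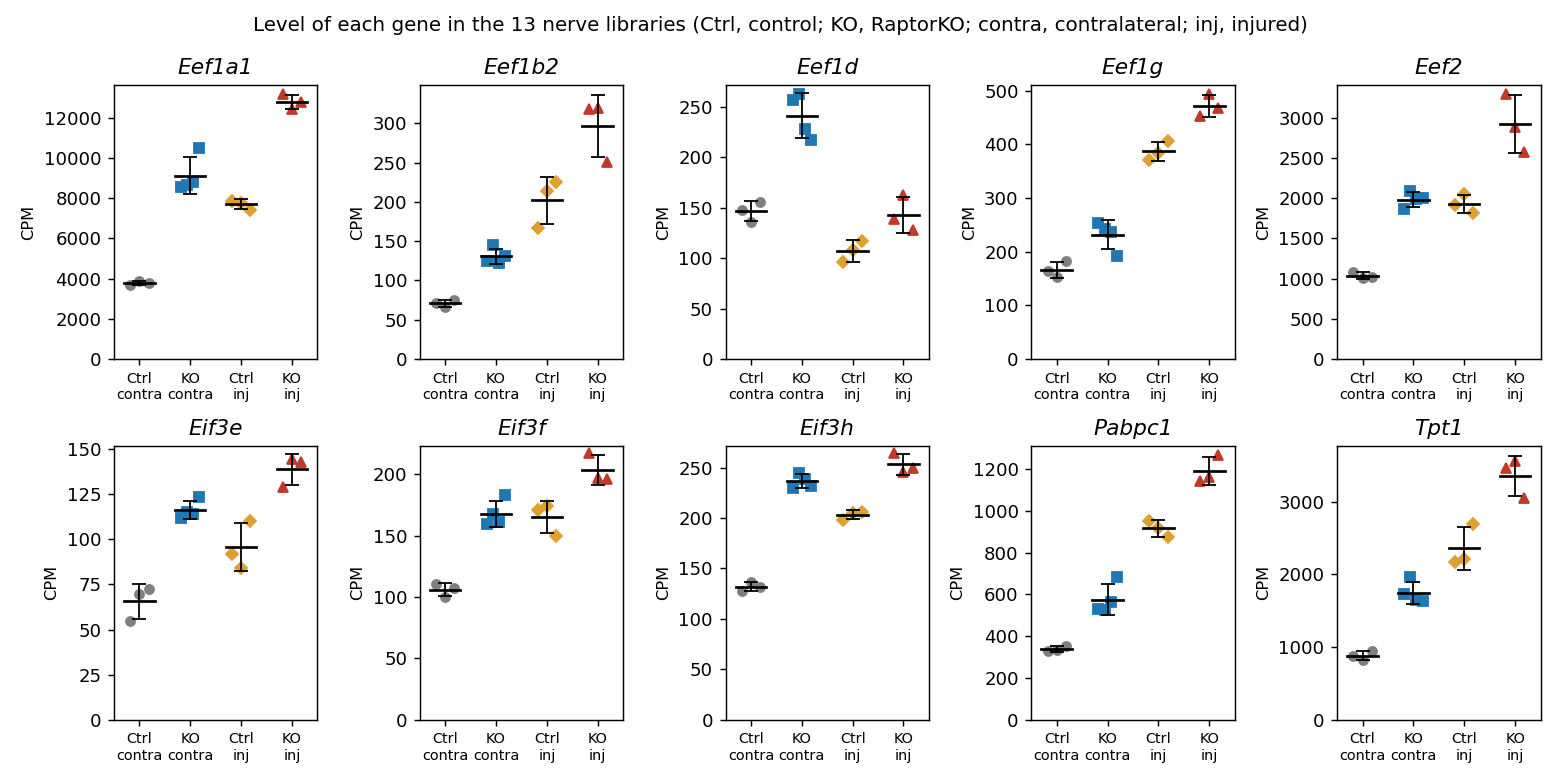
CPM (y axis, from 0) of the 10 genes in each of the 13 libraries, by group (x axis); points are libraries, the wide line is the group mean and the error bar the SD. In every panel the RaptorKO contralateral nerves sit above the control contralateral nerves, and in 9 panels the RaptorKO injured nerves are highest, while Eef1d is highest in RaptorKO contralateral nerves.

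Markers of other cells differed between the same libraries. In contralateral nerves, 7 of 10 tested macrophage markers, 3 of 8 fibroblast and perineurial markers and 2 of 5 mast cell markers, 2 of 4 erythrocyte markers and 1 of 5 tested cell cycle genes, Mki67, were called higher in RaptorKO nerves, and 3 of 9 SC and myelin markers were called lower. The summed level of the macrophage markers was 196.1 to 213.0 CPM in control and 323.0 to 386.6 CPM in RaptorKO nerves, and that of the fibroblast and perineurial markers 5141 to 5952 and 7939 to 11155 CPM. For erythrocyte markers it was 72.5 to 136.9 and 138.2 to 253.5 CPM, and for cell cycle genes 85.5 to 102.6 and 104.2 to 120.5 CPM. For mast cell markers it was 11.96 to 58.4 and 79.9 to 137.7 CPM, and for SC and myelin markers 85988 to 95318 and 73462 to 90246 CPM. No marker of these lists was at 0 throughout a group. The mast cell calls depended on the test, with 0 of 5 called higher by DESeq2 and 3 by edgeR's exact test. Endothelial markers overlapped (410.4 to 455.9 and 418.2 to 520.8 CPM), with 0 of 6 called and 0 at an unadjusted p under 0.05 by either test of edgeR or by DESeq2. The part of these cells in the higher TOP transcripts was not tested.

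In injured nerves, 6 of the 10 genes were called higher in RaptorKO than in control nerves. All 10 again had every RaptorKO value above every control value, which held for 11.7% of the 12040 genes tested, and 4.09% of those genes were called higher and 4.44% lower. The median log2 fold change was 0.48, against 0.00 for all genes. Eef1a1 was at 7883, 7774 and 7424 CPM in control and 13157, 12450 and 12775 CPM in RaptorKO injured nerves (log2 fold change 0.75 ± 0.096, adjusted p = 0.00134). Eef2 was at 1913, 2046 and 1814 CPM against 3290, 2880 and 2572 CPM (log2 fold change 0.61, adjusted p = 0.0114), and Tpt1 at 2166, 2211 and 2691 CPM against 3457, 3563 and 3046 CPM (0.52, adjusted p = 0.0285). The control and RaptorKO ranges were thus clearly apart for Eef1a1 and closer for Tpt1. Eif3e was at 91.9, 84.3 and 110.2 CPM against 128.9, 144.3 and 142.9 CPM (log2 fold change 0.55, adjusted p = 0.0174).

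Eef1b2 was at 167.2, 213.3 and 224.8 CPM in control and 318.4, 319.3 and 251.1 CPM in RaptorKO injured nerves (log2 fold change 0.57, adjusted p = 0.0339), and Pabpc1 at 952.6, 918.6 and 875.7 CPM against 1142, 1162 and 1265 CPM (0.39, adjusted p = 0.0458). The other 4 missed the threshold, although their groups did not overlap. Eef1d had a log2 fold change of 0.43 (adjusted p = 0.0562), Eif3h of 0.33 (adjusted p = 0.0666), Eif3f of 0.32 (adjusted p = 0.0931) and Eef1g of 0.30 (adjusted p = 0.123). The call of Eef1a1 was kept whichever single library was left out, and each of the other 5 calls was lost in at least 1 such fit. Leaving out the first or the second control injured library or the first RaptorKO injured library left 2 calls each, leaving out the second RaptorKO injured library left 3, and leaving out the third control, which differed in sex-linked genes, left 5, without Pabpc1 (0.36, adjusted p = 0.124). Marker levels differed here as well. All 6 endothelial markers were called higher in RaptorKO injured nerves (summed level 407.8 to 645.9 CPM against 227.5 to 340.3 CPM), as were 4 of 5 mast cell (101.7 to 194.0 against 8.47 to 52.2 CPM), 3 of 8 fibroblast and perineurial (6535 to 10758 against 4732 to 7137 CPM) and 3 of 3 tested erythrocyte markers (46.4 to 75.3 against 5.87 to 24.5 CPM). Macrophage markers overlapped (2401 to 4742 against 3439 to 4199 CPM), with 0 of 12 called and 0 at an unadjusted p under 0.05 by the same tools, and 6 of 10 cell cycle genes were called lower (1137 to 1266 against 1798 to 1953 CPM). Of the SC and myelin markers 2 of 9 were called lower, and their summed level did not overlap (2669 to 3265 against 3609 to 4446 CPM). Of the 5 mast cell markers, DESeq2 called 1 higher and edgeR's exact test 5. The part of these marker differences in the TOP transcripts was not tested.

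**Figure D2:**
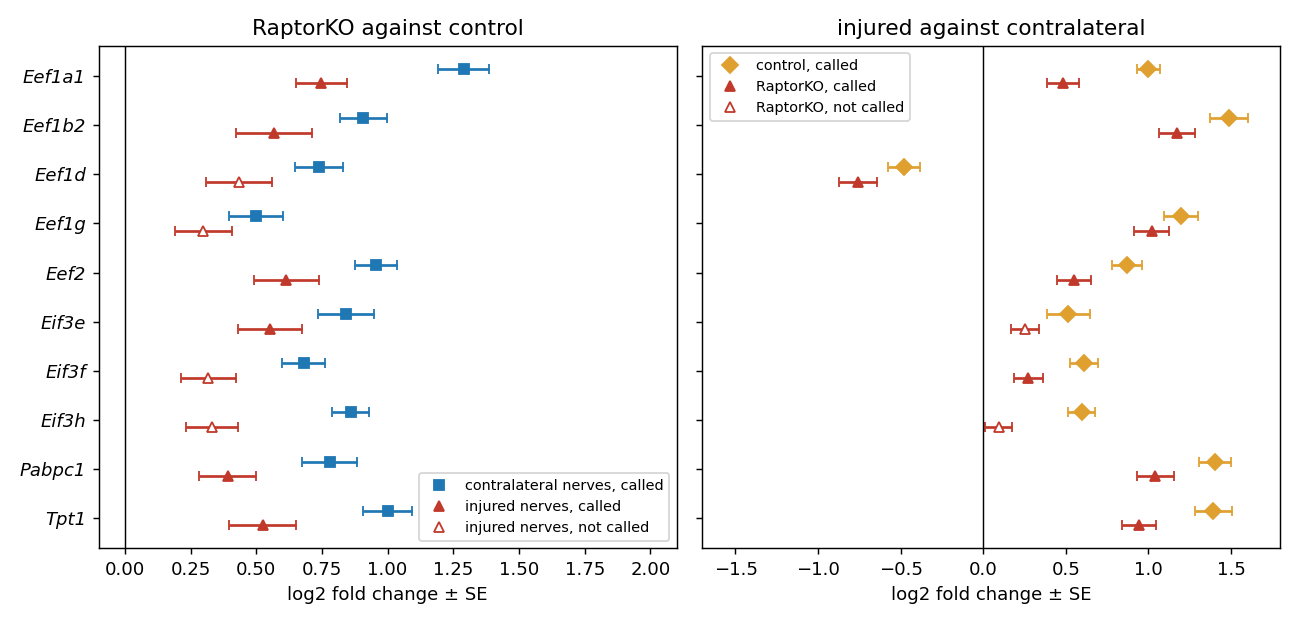
Log2 fold change ± SE (x axis) of each gene (y axis), for RaptorKO against control nerves (left) and for injured against contralateral nerves (right); filled symbols passed the threshold and open symbols did not. The contralateral estimate lies to the right of the injured one for all 10 genes on the left, and Eef1d alone lies below 0 on the right.

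Whether the genotype difference changed with injury was tested as an interaction over all 13 libraries. The difference between RaptorKO and control nerves was smaller in injured than in contralateral nerves for all 10 genes, with interaction terms from -0.54 to -0.20 on the log2 scale and a median of -0.35. The term passed the threshold for Eef1a1 (-0.54 ± 0.12, adjusted p = 0.0259) and Eif3h (-0.53 ± 0.10, adjusted p = 0.0163). For Tpt1 it was -0.47 (adjusted p = 0.13), for Pabpc1 -0.38 (adjusted p = 0.21) and for Eif3f -0.36 (adjusted p = 0.163), and for the remaining 5 genes it lay between -0.34 and -0.20. Of the 12851 genes tested, 1.41% were called lower and 1.07% higher, with a median of -0.01. With the mouse as a block, both kept the call (adjusted p = 0.047 for Eef1a1 and 0.0381 for Eif3h) and Tpt1 gained it (-0.50, adjusted p = 0.0474). The Eif3h call remained when any single library was left out, whereas the Eef1a1 call was lost in 8 of 13 such fits (adjusted p from 0.0509 to 0.0866). Without both libraries of the third control, neither gene passed (adjusted p = 0.0745 for Eif3h and 0.0833 for Eef1a1), while the terms were -0.51 and -0.56. Of the marker lists, 1 of 12 macrophage markers and 6 of 10 cell cycle genes were called lower in this test and 2 of 6 endothelial markers higher, and their part in the interaction was not tested.

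In control nerves, injury raised 9 of the 10 genes and lowered Eef1d. Among the 12430 genes tested, 32.4% were called higher and 32.9% lower, and 36.2% had all injured values above all contralateral values, as these 9 genes had. The strongest differences were those of Eef1b2 (log2 fold change 1.49 ± 0.11, adjusted p = 2.82e-07), Pabpc1 (1.40 ± 0.097, adjusted p = 1.08e-07), Tpt1 (1.39 ± 0.11, adjusted p = 4.12e-07) and Eef1g (1.196 ± 0.10, adjusted p = 8.72e-07). Eef1a1 rose by 0.998 and Eef2 by 0.87, and the eIF3 subunits by 0.52 to 0.61, all on the log2 scale. Eef1d was at 96.2, 107.7 and 117.4 CPM in injured nerves, each below the contralateral values given above (log2 fold change -0.48 ± 0.095, adjusted p = 0.000844). Naprt, which overlaps it, was at 4.89 ± 0.123 CPM in injured and 9.19 ± 1.798 CPM in contralateral control nerves, and how reads were divided between the genes is not known. Injured nerves differed greatly in cell makeup, with summed macrophage markers of 3439 to 4199 CPM against 196.1 to 213.0 CPM, cell cycle genes of 1798 to 1953 CPM against 85.5 to 102.6 CPM, and SC and myelin markers of 3609 to 4446 CPM against 85988 to 95318 CPM. Their part in the injury differences was not tested.

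In RaptorKO nerves, injury raised 7 of the 10 genes and lowered Eef1d. Of 12515 genes tested, 30.5% were called higher and 28.5% lower, and 31.7% had all injured values above all contralateral ones, as 9 of the 10 genes did. Eef1b2 again changed most (log2 fold change 1.17 ± 0.11, adjusted p = 5.99e-06), followed by Pabpc1 (1.04), Eef1g (1.02) and Tpt1 (0.94). Eef2 rose by 0.55, Eef1a1 by 0.48 and Eif3f by 0.27. Eif3e passed on its adjusted p of 0.0265 but not on its fold change of 1.19, and passed on both with the mouse as a block (log2 fold change 0.28, adjusted p = 0.0302). Eif3h had a log2 fold change of 0.09 ± 0.081 (adjusted p = 0.35). Eif3h was at 264.9, 245.3 and 249.3 CPM in RaptorKO injured nerves, only just above the contralateral RaptorKO values, and at 197.9, 205.4 and 206.3 CPM in control injured nerves, far above the contralateral controls. Eef1d was at 138.7, 163.0 and 128.0 CPM in RaptorKO injured nerves (log2 fold change against RaptorKO contralateral -0.76 ± 0.11, adjusted p = 0.000198). Summed marker levels moved here too, with macrophage markers at 2401 to 4742 CPM against 323.0 to 386.6 CPM and SC and myelin markers at 2669 to 3265 CPM against 73462 to 90246 CPM, and their part was not tested.

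The order of the 4 groups was therefore not the same for every gene. Control contralateral nerves were lowest and RaptorKO injured nerves highest for all genes except Eef1d. Between them, RaptorKO contralateral nerves lay above control injured nerves for Eef1a1 (means 9125 and 7694 CPM), Eif3e (116.1 and 95.5 CPM) and Eif3h (236.6 and 203.2 CPM), with no overlap. They lay below control injured nerves for Eef1b2 (130.8 and 201.7 CPM), Eef1g (231.7 and 387.2 CPM), Pabpc1 (575.6 and 915.6 CPM) and Tpt1 (1742 and 2356 CPM), again with no overlap. For Eef2 (1981 and 1924 CPM) and Eif3f (167.9 and 165.1 CPM) these 2 groups overlapped. Eef1d ran from control injured (107.1 CPM) through RaptorKO injured (143.2 CPM) and control contralateral (146.7 CPM), which overlapped, to RaptorKO contralateral nerves (241.5 CPM). These orders are descriptions, since uninjured RaptorKO and injured control nerves differ in both genotype and injury.

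Levels were divided by the length of the longest annotated coding transcript of each gene, for example 1939 bases for Eef1b2 and 2842 for Eef1d. Which transcripts the nerves used was not tested, so the order of genes with similar values depends on this choice. Per kilobase of that length, the 10 genes spanned a wide range of levels. In control contralateral nerves Eef1a1 stood at 2109 ± 49.9 CPM per kb (SD, n = 3), followed by Tpt1 (755 ± 51.3), Eef2 (335 ± 13.9), Pabpc1 (121 ± 4.89), Eif3h (102 ± 3.49) and Eef1g (89.1 ± 7.97). Eef1d (51.6 ± 3.40), Eif3e (43.6 ± 6.33), Eif3f (42.2 ± 2.09) and Eef1b2 (36.5 ± 2.097) were lowest, and Eif3e and Eif3f did not differ beyond their spread. Eef1a1 was thus far more abundant than any subunit of its exchange factor in every group. In RaptorKO injured nerves the 3 leading genes kept this order, at 7132 ± 197, 2870 ± 233 and 943 ± 117 CPM per kb, while Eef1b2 (153 ± 20.2) had passed Eef1d (50.4 ± 6.32).

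**Figure D3:**
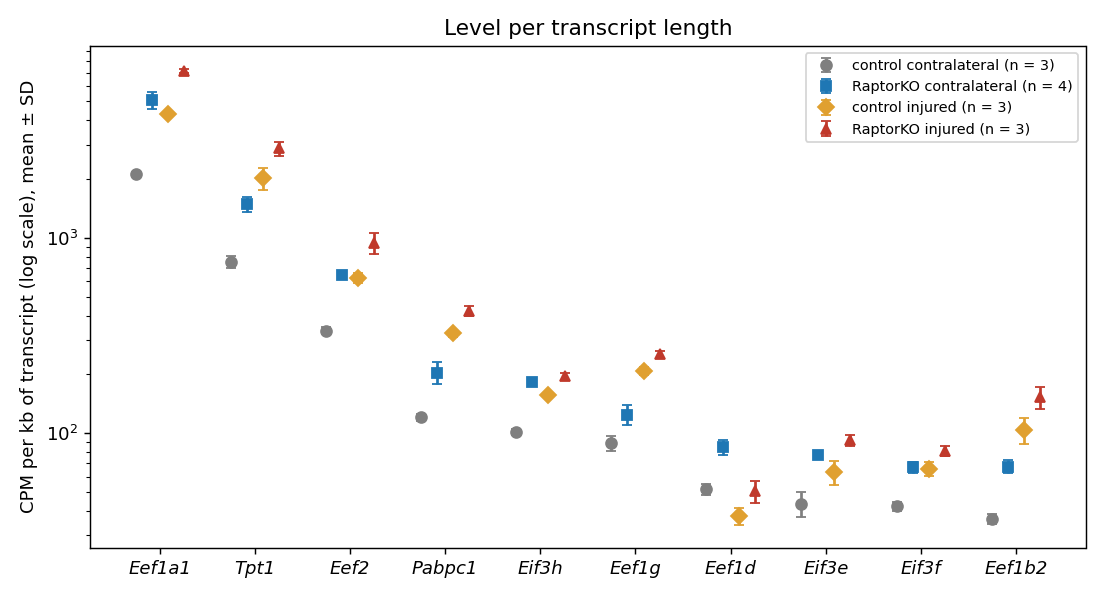
CPM per kb of the longest annotated coding transcript (y axis, log scale) of the 10 genes, ordered by their control contralateral level, as mean ± SD of each group. Eef1a1 is highest in all 4 groups, and for Eef1d both injured groups lie below the RaptorKO contralateral nerves.

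Other genes of translation were counted in the same fits to place the 10 genes. Of the 82 cytosolic ribosomal protein genes, 76 were called higher in RaptorKO contralateral nerves, with a median log2 fold change of 0.85, and 56 in RaptorKO injured nerves, with a median of 0.55. In the interaction, 81 of the 82 terms were negative with a median of -0.30, and 0 passed in edgeR (27 at an unadjusted p under 0.05), whereas DESeq2 called 8 lower. Of 6 other genes with TOP mRNAs, 5 were called higher in contralateral nerves. These were Npm1, a nucleolar chaperone (log2 fold change 1.14, adjusted p = 5.35e-05), Eif4b, which stimulates the helicase eIF4A (1.01, adjusted p = 8.75e-05), Rack1, a scaffold on the small ribosomal subunit (0.93, adjusted p = 0.00011), and, named after their values were seen, Hnrnpa1 (0.42, adjusted p = 0.00672) and Nap1l1 (0.33, adjusted p = 0.0341). Vim, the intermediate filament gene of the same list, was not called (0.18, adjusted p = 0.232). In injured nerves Npm1 (0.80, adjusted p = 0.00311), Rack1 (0.70, adjusted p = 0.00668) and Eif4b (0.48, adjusted p = 0.0146) were called higher.

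The other eIF3 subunit genes were counted in the same way. Of the 11 subunit genes outside the list, 3 were called higher in contralateral nerves, namely Eif3m (log2 fold change 0.88, adjusted p = 0.000694), Eif3k (0.45, adjusted p = 0.00898) and Eif3l (0.37, adjusted p = 0.0161), with a median of 0.23 over the 11. Ranked by log2 fold change among all 14 subunit genes, Eif3m came first and Eif3h, Eif3e and Eif3f took places 2 to 4, while in injured nerves Eif3e came first and Eif3h and Eif3f took places 5 and 6. The core subunit genes Eif3a, Eif3b, Eif3c and Eif3d had values of 0.20, 0.11, 0.19 and 0.04, none of them called. By the quasi-likelihood test the unadjusted p was 0.022 for Eif3a and 0.0293 for Eif3c. Of the 11 genes, 7 had an unadjusted p under 0.05 in contralateral nerves by that test, and DESeq2 called 4 higher. In injured nerves 1 of the 11 was called, Eif3g (0.46, adjusted p = 0.037). The log2 fold change was above 0 for 10 of the 11 in contralateral and for all 11 in injured nerves.

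The remaining translation genes had medians near that of all genes. Of 27 other initiation factors, 2 were called higher in contralateral nerves, Eif4b and the start-codon factor Eif1 (log2 fold change 0.46, adjusted p = 0.00731), and the median was 0.07. Eif4b is also in the list of other TOP genes above and was counted in both. Eif5b, which joins the ribosomal subunits, passed there on its adjusted p of 0.0489 but not on its fold change (log2 0.26). In injured nerves Eif4b and Eif5b (0.79, adjusted p = 0.00157) were called higher, with a median of 0.06. Of 12 other elongation and termination factors, 1 was called by the quasi-likelihood test, lower in contralateral nerves, Eif5a2 (-0.40, adjusted p = 0.0319), where DESeq2 called 2 higher and 1 lower and edgeR's exact test 1 higher and 1 lower. The medians were -0.08 in contralateral and 0.07 in injured nerves. Of 8 tested poly(A)-binding proteins and partners, Pabpc4 was called higher in contralateral (0.68, adjusted p = 0.0224) and in injured nerves (0.42, adjusted p = 0.0393), with medians of 0.02 and 0.08. No mitochondrial translation factor was called by edgeR among 8 tested in contralateral and 9 tested in injured nerves (0 also at an unadjusted p under 0.05 and by DESeq2), with medians of 0.08 and 0.04. In the interaction, Eif4b was called lower (-0.53, adjusted p = 0.0361) and Eif5b (0.54, adjusted p = 0.0231) and Eif3j1 (0.53, adjusted p = 0.0429, named after its values were seen) higher.

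**Figure D4:**
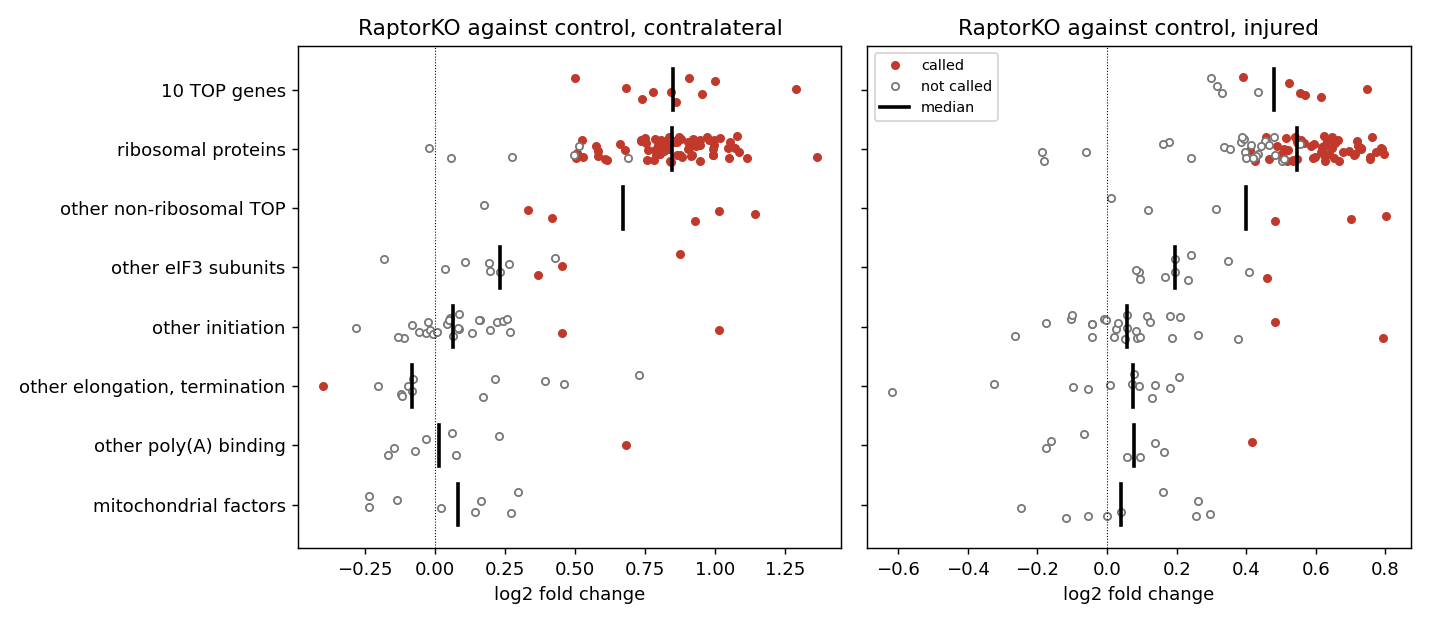
Log2 fold change of RaptorKO against control nerves (x axis) for the genes of 8 lists (y axis) in contralateral (left) and injured nerves (right); points are genes, filled where called, and the black line is the median. The 10 genes and the ribosomal protein genes have medians of 0.85 and 0.85 in contralateral and 0.48 and 0.55 in injured nerves, and the lists in the lower rows have medians close to 0.

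Across the 13 libraries, the genes whose log2 CPM was most like the mean of the 10 were Rps13, Nsa2, Rps4x, Rps3, Rpl6, Npm1, Rps28, Rpl23, Rpl36a and Rps6 (Pearson's r from 0.987 to 0.991). Of these 10 genes 8 encode ribosomal proteins, as do 38 of the nearest 50, where ribosomal protein genes made up 0.639% of the 12841 genes compared. The median r was 0.944 over the ribosomal protein genes and 0.0256 over all genes. The libraries share genotype and injury groups. For deviations from the group means, r with the mean of the 10 was 0.671 to 0.836 for these 8 ribosomal protein genes, 0.10 for Nsa2 and 0.232 for Npm1. Among the 45 pairs of the 10 genes the median r was 0.867, and it ranged from -0.412, for Eef1d with Eef1g, to 0.99, but the median was 0.0886 for deviations from the group means. For 9 of the single genes, the nearest was Rpl17 for Eef1a1, Rack1 for Eef1b2, Pfdn5 for Eef1d, Gm10177 for Eef1g, Rps10 for Eef2, St3gal1 for Pabpc1, Gm2000 for Tpt1, Gm15500 for Eif3e and Rpl19 for Eif3h (r from 0.969 to 0.992).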

How the data were processed

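Reads were single-end, from libraries of whole sciatic nerve RNA with 1 library per nerve. The authors trimmed them with Trimmomatic, aligned them to GRCm38, quantified genes with RSEM 1.2.22, and deposited expected counts, which are estimated counts per gene that need not be whole and are not normalized for depth. They were rounded here. Whether counting used strand is not given in the sources used here. Reads of near-identical copies could be divided among genes, and of 9940 processed pseudogenes in GENCODE M21 only 60 are in the table. None of the table's 604 pseudogene rows matched a member at 90% identity over 50% of its length (blastn 2.17.0). Of 40787 genes, 40550 were matched to GENCODE M21.

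Versions were DESeq2 1.42.0, limma 3.58.1 and edgeR 4.0.16 under R 4.3.3, with matplotlib 3.10.9 under Python 3.11.15 for the figures. Genes with at least 50 counts in 2 libraries of a comparison were tested by edgeR's quasi-likelihood test with TMM factors and Benjamini-Hochberg adjustment over all tested genes. RaptorKO and control nerves were compared within each side, injured and contralateral nerves within each genotype, and the interaction over 13 libraries. Log2 CPM used a prior count of 2. The paper's exact test, DESeq2, other scaling, no count filter, a stricter threshold, 1 common fit, a replicate block and leaving out single libraries were alternatives. The fits were tested on simulated data.

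Named were all 10 members, Rptor, the 3 called genes with the smallest p of each other translation list, and the genes most like the members by Pearson's r. Some items that these rules select are not reported here. The members, lists and tests were chosen with earlier results of these data known. The lists held translation factors, ribosomal proteins, markers of SC and myelin, macrophage, fibroblast and perineurial, endothelial, mast and erythrocyte cells, and cell cycle genes. Skeletal muscle and adipocyte markers were also listed, with 0 of 1 and 0 of 3 tested called between genotypes in contralateral nerves. Summed adipocyte markers there were 0.246 to 26.6 CPM in control and 0 to 121.6 CPM in RaptorKO nerves. Their part in the higher TOP transcripts was not tested. Groups came from the sample labels. Within a genotype, the titles give the injured and contralateral nerve the same number, and the study sequenced the corresponding contralateral nerves, so equal numbers were taken to mark 1 mouse. Deviations of such pairs from the group means correlated with r from -0.0239 to 0.305. Libraries of equal number from different genotypes, on the same side, had r from -0.0495 to 0.301. These values therefore cannot show that a pair came from 1 mouse. The main fits have no block, as in the study, and treat libraries as independent. Fits with the mouse as a block, in which the fourth RaptorKO contralateral library has no partner, are given where they change a call.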

Additional observations from a re-analysis of the deposited data

Results flagged for a closer look

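Eef1a1 was at 10476 CPM in the fourth RaptorKO contralateral library, where the other 3 lay between 8578 and 8809 CPM. The gap to the nearest value was 0.878 of the group's range, above the limit of Dixon's test for 4 samples. Chance alone passes this limit in about 1 of 20 groups. That rate is for a group chosen beforehand, whereas this value was flagged after the data were seen.

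The genotype difference of Eef1a1 was smaller in injured than in contralateral nerves by the interaction test (-0.536 on the log2 scale, adjusted p = 0.0259 with edgeR), and -0.463 without the fourth RaptorKO contralateral library (adjusted p = 0.0199). The same held for Eif3h (-0.525, adjusted p = 0.0163).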

How the results depend on the processing

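Of 780 member values under alternatives, 718 kept their direction and side of the threshold, 48 lost the call, 14 gained it and 0 changed direction. In the comparison of contralateral nerves, 9 or 10 members were called under every alternative, in control injury 10 each time, and in RaptorKO injury 7 to 9. In injured nerves the 6 called members became 1 at an adjusted p below 0.01, 3 with the replicate block and 2 to 6 with single libraries left out. DESeq2 called 8 there, and all 10 had an unadjusted p under 0.05 by the quasi-likelihood test. For the interaction the 2 called members became 0 at an adjusted p below 0.01, 0 without both libraries of the third control (chosen after seeing the data) and 1 to 2 with single libraries left out. DESeq2 called 3 in the interaction, and 6 had an unadjusted p under 0.05 by the quasi-likelihood test. With single libraries left out, the median log2 fold change ranged from 0.796 to 0.891 in contralateral, 0.429 to 0.537 in injured, 0.92 to 0.985 in control injury, 0.456 to 0.554 in RaptorKO injury, and -0.409 to -0.327 in the interaction. Leaving out a library also leaves fewer samples, and no other cause was tested. Genes called over the whole table went from 1208 to 477 at an adjusted p below 0.01 in contralateral nerves (524 to 1418 with single libraries left out). In injured nerves they went from 1028 to 351 at that threshold and 1556 with no count filter (447 to 999), and in the interaction from 318 to 84 at that threshold, 598 with DESeq2 and 113 without the third control (132 to 284). The replicate block called 10, 3, 10, 9 and 3 members in the 5 comparisons, in the order above with the interaction last. It pairs nerves of 1 mouse in the injury comparisons and the interaction, where it changed no other member call than those of Eif3e and Tpt1, and only equal numbers of different mice in the comparisons of genotypes. Of 6 injured libraries, 4 matched the contralateral library of their own number best. Each was compared only with contralateral libraries 1 to 3 of its genotype. In both genotypes, injured libraries 1 and 2 both matched contralateral library 2, so this count cannot show which nerves came from 1 mouse.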
